A study of Mus musculus with 10 samples.

Results

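Genes of the germline, of meiosis and of the piRNA pathway were followed in mouse embryonic stem cells that lack isoforms of Mbd3, the subunit that holds the nucleosome remodelling and deacetylase complex NuRD together. The genes were taken by symbol: families named for testis, sperm, meiosis or piRNA function (Tex, Tdrd, Sycp, Piwil, Spata, Spag, Mageb and others) and single genes such as Smc1b, Mov10l1, Stag3, Mael and Ddx4, without Dazl and Sohlh2. In all, 44 such genes were listed among the 8694 genes in the deposited tables, of 138 protein-coding mouse genes in RefSeq whose symbol fits. Each table lists its called genes and at most 11 others, so a gene that a table does not list has no value in it.

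RNA was sequenced from 10 libraries, 2 each of 5 groups of E14 cells, a mouse embryonic stem cell line grown here on gelatin-coated plates without a feeder layer named in the labels. The Mbd3abc KO cells carry a CRISPR/Cas9 mutation in exon 5 of Mbd3 and are labelled as lacking isoforms a, b and c. The Mbd3cΔN-ab KO cells are mutated in exon 2, with the genotype given as a and b lost and c in the form cdeltaN. The Mbd3ab KO cells are also mutated in exon 2 and the Mbd3c KO cells in intron 2, and the unmutated E14 cells are the wild type (WT). Each mutant was compared with the same 2 WT libraries. The labels call the 2 libraries of a group biological replicates and name no clones. Each mutant library has a column name of its own that no label explains, so whether the 2 are separate clones is not known, and p-values measure the spread between these libraries.

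Mbd3 itself had 108 and 158 normalized reads in Mbd3abc KO, against 1775 and 1689 in WT, which is 13.0-fold lower. It was 5.57-fold lower in Mbd3cΔN-ab KO and 2.61-fold lower in Mbd3ab KO, and it was not listed for Mbd3c KO. Normalized reads are reads divided by the size factor of the library within its table. The deposited signal per read of the first WT library, divided by that of each library, gave ratios between 0.710 and 1.59. Mbd3c KO was not included in these ratios. Of 8 stem cell markers, 4 were lower and 2 higher in Mbd3abc KO, with Pou5f1 3.02-fold lower and Klf4 1.95-fold higher than in WT, and 4 were lower and 1 higher in Mbd3cΔN-ab KO. Among all genes tested, 24.9% were lower and 27.1% higher in Mbd3abc KO, and 20.4% and 21.1% in Mbd3cΔN-ab KO.

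Germ cells keep transposons silent with piRNAs, short RNAs carried by PIWI proteins and made with the help of Tudor-domain proteins and the helicase Mov10l1 in granules called nuage. When meiosis begins, chromosomes are folded along an axis of meiotic cohesin (Smc1b, Stag3) and synaptonemal complex proteins (Sycp2, Sycp3, Hormad1), on which Dmc1 exchanges strands. In embryonic stem cells many of these genes have CpG-rich promoters that are kept silent by DNA methylation and by a Polycomb complex that is brought to E-box and E2F-type letters by Mga with Max and by E2f6.

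The promoters below are shown because their genes span the patterns described here: Sycp3, Hormad1, Mov10l1 and Smc1b were higher in mutants, Tdrd12 and Stag3 lower. Each runs from 250 bases before to 50 after the start of the gene, in the direction of transcription, from RefSeq on GRCm38.p6, the assembly of mm10, with CACGTG (the E-box) and GCGGGA or its reverse complement TCCCGC (E2F type) in capitals. In order, they lie at chr10:88459337-88459636 (+), chr3:95559427-95559726 (+), chr15:88982744-88983043 (+), chr15:85131908-85132207 (-), chr7:35537695-35537994 (-) and chr5:138280259-138280558 (+).
Sycp3: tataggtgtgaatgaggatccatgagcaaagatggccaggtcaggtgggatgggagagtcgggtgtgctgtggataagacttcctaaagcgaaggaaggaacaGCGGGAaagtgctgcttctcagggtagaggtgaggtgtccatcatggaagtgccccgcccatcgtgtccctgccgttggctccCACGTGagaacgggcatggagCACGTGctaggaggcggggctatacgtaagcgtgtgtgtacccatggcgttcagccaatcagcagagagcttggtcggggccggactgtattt
Hormad1: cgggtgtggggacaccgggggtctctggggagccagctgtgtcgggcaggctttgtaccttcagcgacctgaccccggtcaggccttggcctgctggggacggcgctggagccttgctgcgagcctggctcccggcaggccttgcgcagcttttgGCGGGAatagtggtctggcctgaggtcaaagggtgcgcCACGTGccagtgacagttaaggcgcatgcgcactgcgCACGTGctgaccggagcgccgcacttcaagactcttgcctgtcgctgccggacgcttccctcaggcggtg
Mov10l1: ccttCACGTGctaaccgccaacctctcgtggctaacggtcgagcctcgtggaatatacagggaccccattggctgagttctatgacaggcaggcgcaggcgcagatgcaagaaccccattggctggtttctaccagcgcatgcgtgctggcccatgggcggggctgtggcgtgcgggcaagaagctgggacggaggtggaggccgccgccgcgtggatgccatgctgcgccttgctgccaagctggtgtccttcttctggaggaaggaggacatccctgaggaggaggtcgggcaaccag
Smc1b: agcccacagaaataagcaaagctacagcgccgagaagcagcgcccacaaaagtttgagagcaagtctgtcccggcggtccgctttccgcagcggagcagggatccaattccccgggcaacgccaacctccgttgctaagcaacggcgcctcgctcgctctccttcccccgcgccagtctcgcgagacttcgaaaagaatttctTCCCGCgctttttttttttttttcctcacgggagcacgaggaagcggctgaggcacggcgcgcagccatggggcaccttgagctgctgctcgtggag
Tdrd12: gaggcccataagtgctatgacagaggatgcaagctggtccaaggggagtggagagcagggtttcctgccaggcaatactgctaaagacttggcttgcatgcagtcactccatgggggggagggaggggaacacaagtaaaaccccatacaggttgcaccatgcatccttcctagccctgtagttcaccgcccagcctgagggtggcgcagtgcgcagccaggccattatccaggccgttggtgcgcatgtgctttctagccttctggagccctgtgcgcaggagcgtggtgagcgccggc
Stag3: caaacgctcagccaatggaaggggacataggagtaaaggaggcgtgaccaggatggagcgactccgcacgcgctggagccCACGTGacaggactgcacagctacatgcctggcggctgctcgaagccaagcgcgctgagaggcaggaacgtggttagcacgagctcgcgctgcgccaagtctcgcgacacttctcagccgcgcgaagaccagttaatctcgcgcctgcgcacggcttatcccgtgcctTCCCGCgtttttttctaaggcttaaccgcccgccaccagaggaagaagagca

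Promoters of 37 of the 44 genes were matched. CACGTG was present in 10 of them (27.0%), against 7.18% of 27020 mouse promoters of the same length. The 10 genes were Brdt, Ddx4, Hormad1, Mael, Mov10l1, Slc25a31, Stag3, Sycp1, Sycp3 and Taf7l, of which Stag3 was lower in Mbd3abc KO and the other 9 higher. Among genes that rose in Mbd3abc KO, 36.0% of 25 germline promoters held an E-box, against 10.2% of all promoters of risen genes. GCGGGA, counted on both strands, was in 54.1% of the 37, against 20.1% of all promoters, and in 37.9% of promoters of all genes that rose and 37.8% of those that fell. Sycp3 and Hormad1 carry 2 E-boxes each close to the start, Mov10l1 carries 1 near the far end of the window, Smc1b has the E2F-type letters alone, and neither motif was in the Tdrd12 window. These are matches of letters, and no binding was measured. Median promoter GC was 60.7% over the 37, against 52.7% over all promoters, and the median number of CpG dinucleotides was 20 against 7. Promoters of all genes called in Mbd3abc KO were as rich, with a median GC of 62.3% and 23 CpG for those that rose and 61.0% and 21 CpG for those that fell.

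In Mbd3abc KO, 41 of the 44 genes passed the authors' test (adjusted p under 0.05), 31 higher and 10 lower than in WT. In the same comparison 52.1% of 15622 genes tested were called, 27.1% higher and 24.9% lower. The 44 are genes listed in at least 1 table, which being called largely decided, so nothing is read from 41 of 44. Of all 8694 genes listed in any table, 8132 were called in Mbd3abc KO. Of the called germline genes 75.6% were higher, against 52.1% of all called genes. A gene near 0 in WT can be called only when it rises. Of the risen germline genes 54.8% lay under 10 normalized reads per kb in WT, against 26.0% of all risen genes. Nothing is therefore read from this share, or from the shares higher and the medians below. In Mbd3cΔN-ab KO 28 of the 44 were called, 17 higher and 11 lower, beside 5989 of the 8694 listed genes and 41.5% of 14429 genes tested, 21.1% higher and 20.4% lower. There 60.7% of called germline genes were higher, against 50.9% of all called genes. In Mbd3ab KO 4 of the 44 were called, 1 higher and 3 lower, beside 442 of the 8694 listed genes and 3.35% of 13201 genes tested, 2.05% higher and 1.3% lower. The Mbd3c KO table listed none of the 44, and 0.353% of 10759 genes were called in it by DESeq2. Its genes that were tested and not called have no values, so no unadjusted count can be given for it. The median deposited log2 fold change of the called germline genes was 1.45 in Mbd3abc KO (0.46 over all called genes) and 0.83 in Mbd3cΔN-ab KO (0.37 over all called genes), which describes listed genes only.

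**Figure D1:**
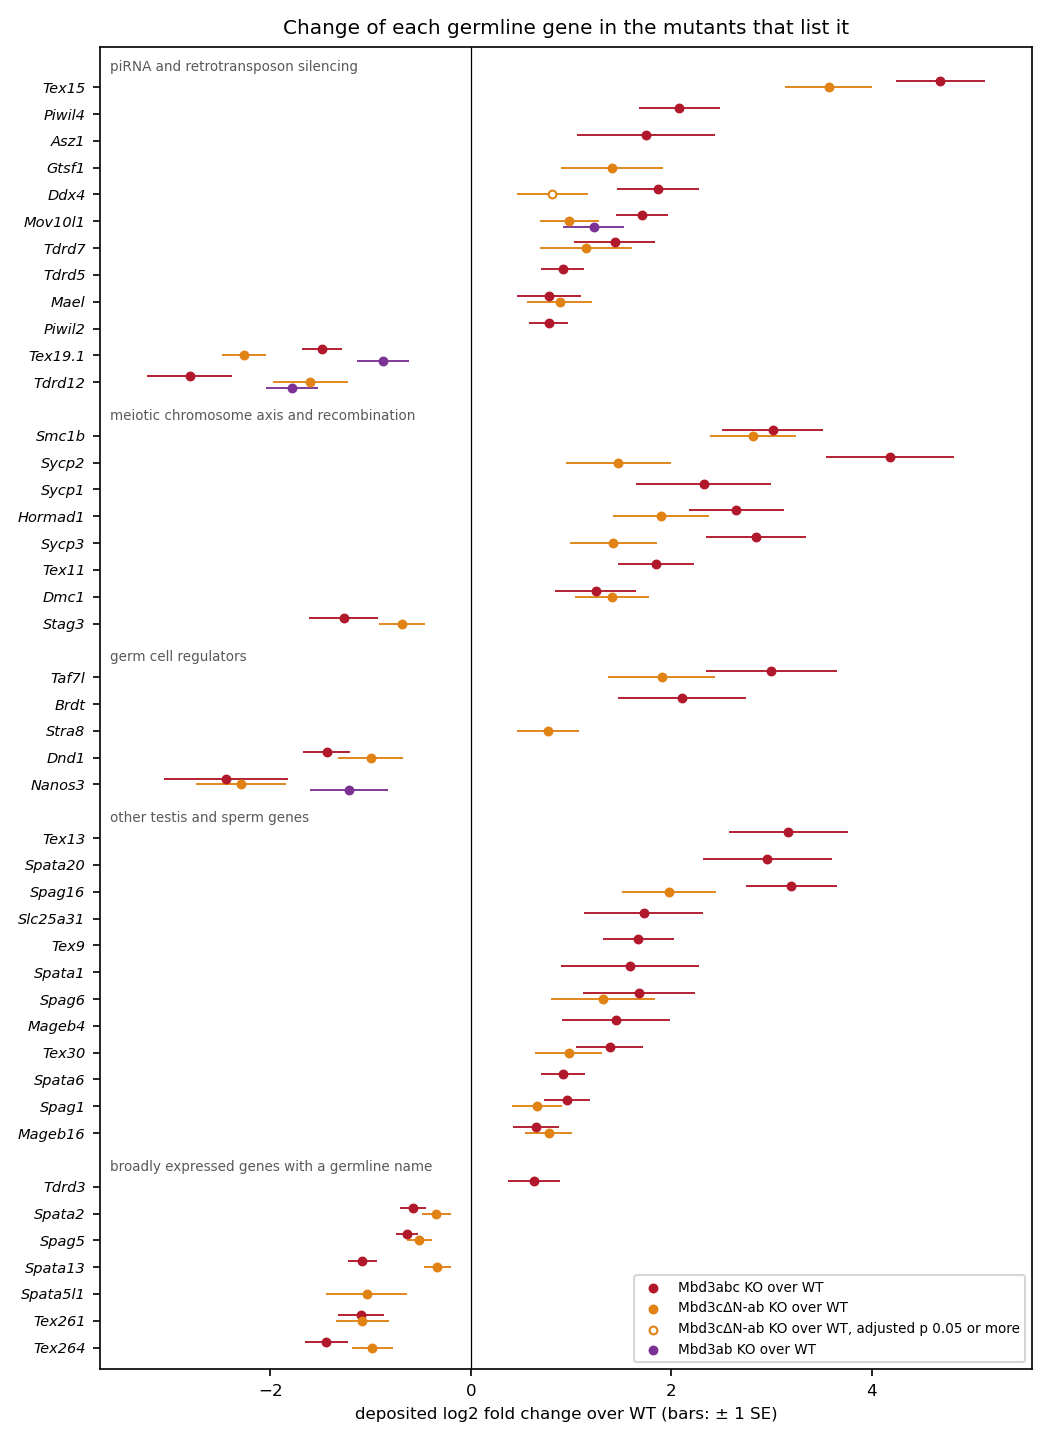
Deposited log2 fold change over WT (x axis, points with bars of ± 1 SE) of each of the 44 genes (rows, grouped by role) in Mbd3abc KO, Mbd3cΔN-ab KO and Mbd3ab KO. Tex15 stands at 4.69 in Mbd3abc KO and 3.57 in Mbd3cΔN-ab KO, Tdrd12 and Nanos3 lie at the left in all 3, and the open point is Ddx4 in Mbd3cΔN-ab KO, which did not pass the test.

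The 2 mutants overlapped in 25 called genes, 15 higher in both, 10 lower in both and 0 in opposite directions. These were 61.0% of the Mbd3abc KO calls and 89.3% of the Mbd3cΔN-ab KO calls, and over all genes the shares were 67.6% and 91.7%, with 5 genes opposite. Both comparisons use the same WT libraries. Of the 16 genes called in Mbd3abc KO and not in Mbd3cΔN-ab KO, all 16 were higher in Mbd3abc KO, while Gtsf1 and Stra8 (higher) and Spata5l1 (lower) were called in Mbd3cΔN-ab KO and not in Mbd3abc KO. Every called germline gene had both mutant libraries on one side of both WT libraries, and so did all 8132 and 5989 called genes of the 2 tables.

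Genes are taken below by role. The role groups were assigned by hand with the direction of these genes known, so the counts by group are descriptions and nothing is read from a group that moved one way.

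The piRNA group held genes of both directions. Of 11 listed genes of piRNA biogenesis and retrotransposon silencing in Mbd3abc KO, 9 rose and 2 fell, and of 8 in Mbd3cΔN-ab KO 5 rose and 2 fell. Tex15, a nuclear protein needed for silencing of transposons in fetal male germ cells and for meiosis, changed most. At chr8:33570544-33585585, Tex15 had 175 and 176 normalized reads in Mbd3abc KO, against 7.72 and 1.63 in WT, and 103 and 99.9 in Mbd3cΔN-ab KO, against 7.33 and 1.56 in WT. That is 37.5-fold and 22.9-fold higher, the 2 libraries of each mutant lay close together, and WT rested on 8 reads in all. Adjusted p was 3.65e-24 and 7.03e-15 in the authors' deposited tables.

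Mov10l1, the helicase that starts piRNA biogenesis, lies at chr15:88982994-89055152. Its levels were 155 and 179 normalized reads in Mbd3abc KO, against 50.2 and 48.1 in WT, 111 and 86.4 in Mbd3cΔN-ab KO, against 47.6 and 46.0 in WT, and 120 and 110 in Mbd3ab KO, against 43.1 and 41.8 in WT. All 6 mutant libraries lay above both WT libraries, by 3.40-fold, 2.10-fold and 2.71-fold. In the authors' deposited tables the adjusted p was 2.87e-10, 0.00334 and 0.004. Mov10l1 was the one germline gene called higher in Mbd3ab KO, and that call was lost in every refit of all libraries with edgeR, DESeq2 or limma. Of all 443 genes listed for Mbd3ab KO, the same refits called 0 with edgeR or limma, 32 with edgeR and TMM factors and 239 with DESeq2. The loss with edgeR or limma is thus not particular to Mov10l1, while the DESeq2 refit kept 239 of the 443 genes and not Mov10l1.

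Tdrd12, a Tudor-domain helicase of secondary piRNA production, at chr7:35493610-35537744, went the other way. It had 24.2 and 61.1 normalized reads in Mbd3abc KO, against 385 and 364 in WT, 60.2 and 136 in Mbd3cΔN-ab KO, against 365 and 348 in WT, and 68.6 and 94.8 in Mbd3ab KO, against 330 and 316 in WT. Tdrd12 thus fell 8.78-fold, 3.64-fold and 3.95-fold, with the 2 libraries of each mutant apart by more than the 2 of WT. Its adjusted p in the authors' deposited tables was 3.26e-10, 9.21e-05 and 8.17e-09. Tex19.1, which restrains LINE-1 elements in germ cells and embryonic stem cells, fell with it: 170 and 203 normalized reads in Mbd3abc KO against 577 and 497 in WT, 112 and 87.2 in Mbd3cΔN-ab KO against 547 and 475 in WT, and 193 and 280 in Mbd3ab KO against 495 and 432 in WT. The falls were 2.88-fold, 5.13-fold and 1.96-fold, the largest being that in Mbd3cΔN-ab KO. In Mbd3ab KO the Tdrd12 call held in the refits of all libraries with DESeq2 and with edgeR and TMM factors, and not with edgeR alone or limma. The Tex19.1 call held in none of them. Tex19.1 has a close relative in the genome, and reads may be shared between them.

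**Figure D2:**
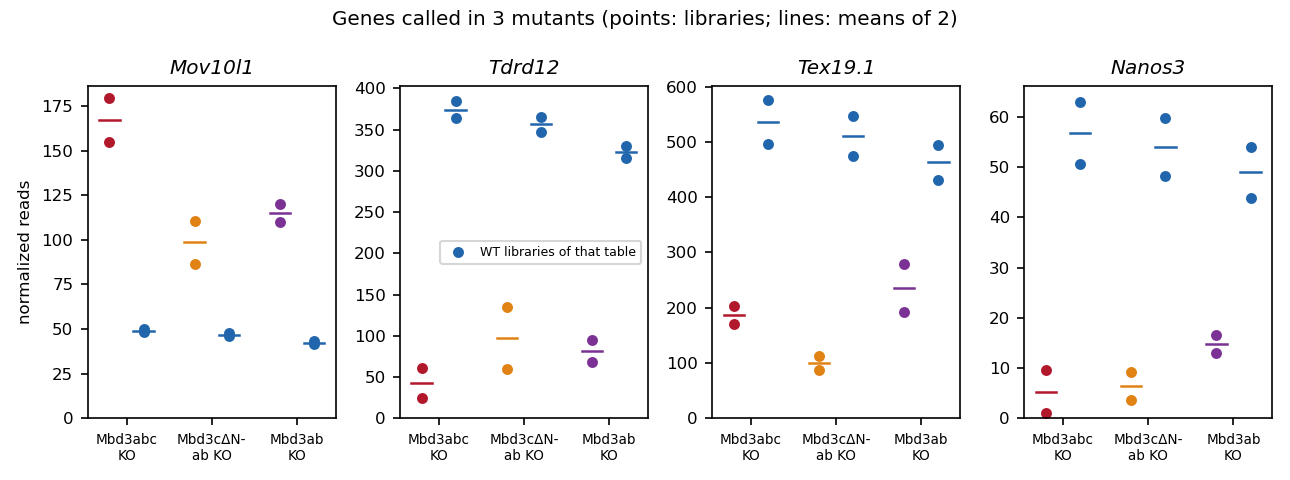
Normalized reads (y axis, from 0) of the 4 genes called in 3 mutants, with each mutant's 2 libraries at the left of each pair in its own colour and the 2 WT libraries of the same table at the right in blue, lines being means of 2. Mov10l1 lies above WT in every mutant library, and Tdrd12, Tex19.1 and Nanos3 lie below it.

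Among PIWI proteins, Piwil4 (MIWI2, the nuclear PIWI protein of fetal germ cells) had 85.1 and 67.7 normalized reads in Mbd3abc KO, against 11.6 and 18.8 in WT, a 5.04-fold rise, and Piwil2 (MILI) rose 1.74-fold. Neither was listed for Mbd3cΔN-ab KO. Ddx4 (VASA, a helicase that marks germ cells) had 91.8 and 163 normalized reads in Mbd3abc KO, against 30.9 and 30.2 in WT, and rose 4.17-fold. In Mbd3cΔN-ab KO the Ddx4 values were 46.9 and 62.7, against 29.3 and 28.8 in WT, with an adjusted p of 0.0502 in the authors' deposited table, just outside the threshold. Tdrd7, a scaffold of germ granules, had 46.4 and 42.9 normalized reads in Mbd3abc KO, against 14.2 and 15.5 in WT, and 54.1 and 27.1 in Mbd3cΔN-ab KO, against 13.4 and 14.8 in WT. It rose 3.01-fold and 2.88-fold. Gtsf1, a zinc finger partner of PIWI proteins, was called in Mbd3cΔN-ab KO alone, with 39.7 and 17.8 normalized reads, against 4.89 and 7.79 in WT, 4.53-fold higher. Mael, a nuage protein, rose 1.76-fold in Mbd3abc KO and 1.96-fold in Mbd3cΔN-ab KO, and Tdrd5 rose 1.91-fold in Mbd3abc KO. Asz1, which ties nuage to mitochondria, had 16 and 3 reads in Mbd3abc KO and 0 in both WT libraries, at least 2.91-fold higher against a floor of 3 reads per WT library.

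Of the meiotic chromosome genes, 7 of 8 listed rose in Mbd3abc KO. In Mbd3cΔN-ab KO 5 of 6 rose, and in each mutant the exception was Stag3. Smc1b, the meiosis-specific SMC1 cohesin subunit at chr15:85064689-85131957, had 90.9 and 54.4 normalized reads in Mbd3abc KO, against 6.44 and 5.71 in WT, and 81.8 and 57.6 in Mbd3cΔN-ab KO, against 6.11 and 5.46 in WT. The rise was 11.96-fold and 12.05-fold, and on the scale common to both tables the mutants overlapped, at 88.7 and 53.1 in Mbd3abc KO and 83.8 and 59.0 in Mbd3cΔN-ab KO. The adjusted p for Smc1b was 1.23e-08 and 1.2e-09 in the authors' deposited tables. Stag3, its partner in meiotic cohesin at chr5:138280509-138312393, fell 2.57-fold, to 241 and 455 normalized reads in Mbd3abc KO, against 857 and 927 in WT. In Mbd3cΔN-ab KO it had 427 and 602, against 814 and 886 in WT, 1.65-fold lower. Per kb of transcript, WT cells held a mean of 213 normalized reads of Stag3 and 1.51 of Smc1b in the Mbd3abc KO table, so the gene that fell was the abundant one.

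The axis proteins Sycp2 and Sycp3 were both higher. No Sycp2 read was found in WT, while Mbd3abc KO had 53 and 37 reads and Mbd3cΔN-ab KO 5 and 11 reads. Against a floor of 3 reads per WT library this is at least 13.7-fold higher and at least 2.55-fold higher. Sycp3, at chr10:88459587-88473236, had 341 and 153 normalized reads in Mbd3abc KO, against 32.2 and 16.3 in WT, and 98.7 and 58.4 in Mbd3cΔN-ab KO, against 30.5 and 15.6 in WT. It rose 10.2-fold and 3.41-fold, and per kb it was the most abundant of the risen germline genes in Mbd3abc KO, at 222 normalized reads. Hormad1, which marks unsynapsed axes, had 71.5 and 69.6 normalized reads in Mbd3abc KO, against 12.9 and 4.89 in WT, and 38.5 and 62.7 in Mbd3cΔN-ab KO, against 12.2 and 4.68 in WT, or 7.95-fold and 5.99-fold more. Dmc1, the meiotic recombinase, had 107 and 78.2 normalized reads in Mbd3abc KO, against 25.7 and 44.9 in WT, and 120 and 91.5 in Mbd3cΔN-ab KO, against 24.4 and 42.9 in WT. Its rise was 2.63-fold and 3.15-fold. Tex11, a crossover factor on the X chromosome, rose 3.98-fold in Mbd3abc KO. Sycp1, the transverse filament protein, had 22 and 12 reads in Mbd3abc KO against 0 and 2 in WT, a ratio of 16.3 with a 95% counting interval of 4.19 to 140.

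**Figure D3:**
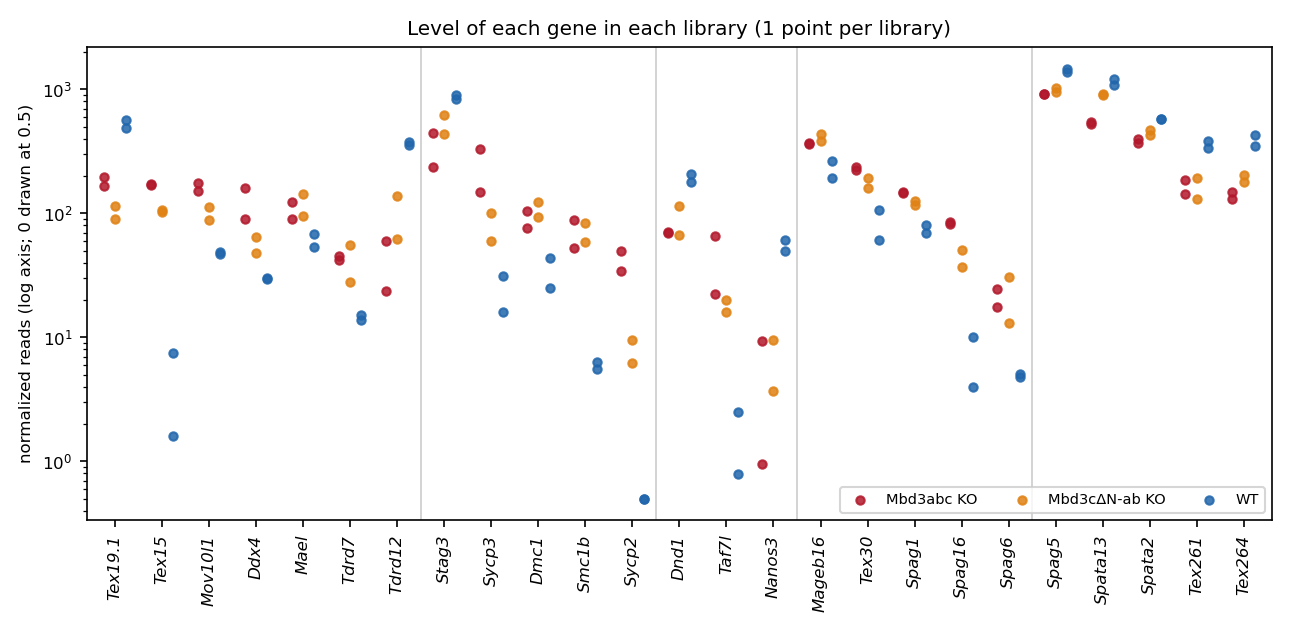
Normalized reads (y axis, log scale, 0 drawn at 0.5) of the 25 genes listed with the same transcript in both tables, on 1 common scale, with 1 point per library for Mbd3abc KO, Mbd3cΔN-ab KO and WT and grey lines between role groups. Tex15, Smc1b, Sycp2 and Taf7l lie near the floor in WT and higher in the mutants, though Sycp2 stays low in Mbd3cΔN-ab KO, at 6.16 and 9.55. Tdrd12, Tex19.1, Stag3 and Nanos3 lie above the mutants in WT.

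Regulators of germ cells moved both ways, 2 up and 2 down in each of the 2 mutants. Nanos3, an RNA-binding protein that keeps primordial germ cells alive, had 0.967 and 9.54 normalized reads in Mbd3abc KO, against 63.1 and 50.6 in WT, 3.61 and 9.32 in Mbd3cΔN-ab KO, against 59.9 and 48.3 in WT, and 13.1 and 16.6 in Mbd3ab KO, against 54.1 and 43.9 in WT. The falls were 10.8-fold, 8.37-fold and 3.31-fold. For the last the adjusted p was 0.0497 in the authors' deposited table, just inside the threshold, and the call was lost in every refit of all libraries. Dnd1, its RNA-binding partner in germ cells, had 72.5 and 70.6 normalized reads in Mbd3abc KO, against 183 and 215 in WT, and 112 and 65.2 in Mbd3cΔN-ab KO, against 173 and 205 in WT. That is 2.78-fold and 2.14-fold lower. Taf7l, a germ cell form of the TFIID subunit Taf7 on the X chromosome, had 70 and 24 reads in Mbd3abc KO against 2 and 1 in WT, a ratio of 30.1 (95% counting interval 9.9995 to 149). In Mbd3cΔN-ab KO it had 13 and 23 reads against the same WT reads, a ratio of 12.5 (3.96 to 63.6). Brdt, the testis member of the BET bromodomain family, had 26.1 and 20.03 normalized reads in Mbd3abc KO, against 5.15 and 0.816 in WT, and was 7.73-fold higher. Stra8, which retinoic acid induces at the entry into meiosis, was 1.81-fold higher in Mbd3cΔN-ab KO and not listed for Mbd3abc KO.

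All 12 listed genes of the testis and sperm group rose in Mbd3abc KO, and all 5 listed in Mbd3cΔN-ab KO. It holds what was left after the other groups were formed, so that its genes share a direction describes the sorting as much as the genes. Spag16, a protein of the central pair of the sperm tail, had 87.0 and 84.0 normalized reads in Mbd3abc KO, against 10.3 and 4.08 in WT, and 36.1 and 49.1 in Mbd3cΔN-ab KO, against 9.77 and 3.90 in WT. It rose 11.9-fold and 6.23-fold. Spag6, of the same structure, had 25.1 and 18.1 normalized reads in Mbd3abc KO, against 5.15 and 4.89 in WT, and 30.1 and 12.7 in Mbd3cΔN-ab KO, against 4.89 and 4.68 in WT, rising 4.31-fold and 4.47-fold. Tex30 had 242 and 230 normalized reads in Mbd3abc KO, against 109 and 62.0 in WT, and 155 and 189 in Mbd3cΔN-ab KO, against 104 and 59.2 in WT, rising 2.75-fold and 2.11-fold. Spag1, an assembly factor of dynein arms, and Mageb16 rose less, by 1.97-fold and 1.59-fold in Mbd3abc KO and 1.61-fold and 1.77-fold in Mbd3cΔN-ab KO.

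The other 7 were called in Mbd3abc KO alone. Tex13 had 34.8 and 42.9 normalized reads in Mbd3abc KO, against 0 and 3.26 in WT, 23.8-fold more. Slc25a31, the ADP/ATP carrier of male germ cells, had 23.2 and 15.3 normalized reads in Mbd3abc KO, against 3.86 and 4.08 in WT, 4.84-fold more. Spata20 had 32 and 21 reads in Mbd3abc KO against 0 and 2 in WT (ratio 25.5, 95% counting interval 6.72 to 216), and Spata1 had 16 and 6 reads in Mbd3abc KO against 1 and 2 in WT (ratio 7.05, 2.12 to 36.8). At these counts the intervals span more than 10-fold and cover counting error only. Tex9 rose 3.53-fold, Mageb4 3.40-fold and Spata6, needed to form the neck of the sperm, 1.93-fold. Mageb4 and Mageb16 belong to a family of similar genes on the X chromosome, between which reads can be shared.

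The last group holds genes that carry a germline name but serve most cell types. Of its 6 genes listed there, 5 fell in Mbd3abc KO, and all 6 listed for Mbd3cΔN-ab KO fell there, a count that rests on which Spata, Spag and Tex genes were sorted into it. Tex264, a receptor for the autophagy of endoplasmic reticulum, had 152 and 135 normalized reads in Mbd3abc KO, against 438 and 361 in WT, and 199 and 175 in Mbd3cΔN-ab KO, against 415 and 345 in WT. It fell 2.79-fold and 2.03-fold. Tex261 had 147 and 191 normalized reads in Mbd3abc KO, against 396 and 343 in WT, and 126 and 187 in Mbd3cΔN-ab KO, against 376 and 327 in WT, falling 2.19-fold and 2.24-fold. Spata13, a guanine nucleotide exchange factor, had 542 and 563 normalized reads in Mbd3abc KO, against 1251 and 1109 in WT, and 894 and 878 in Mbd3cΔN-ab KO, against 1188 and 1060 in WT. Its fall was 2.14-fold and 1.27-fold. The spindle protein Spag5 (astrin) fell 1.56-fold and 1.44-fold, Spata2, an adaptor of the deubiquitinase Cyld, 1.497-fold and 1.28-fold, and Spata5l1 2.33-fold in Mbd3cΔN-ab KO. Tdrd3, a reader of methylated arginine, was the exception and rose 1.58-fold in Mbd3abc KO.

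**Figure D4:**
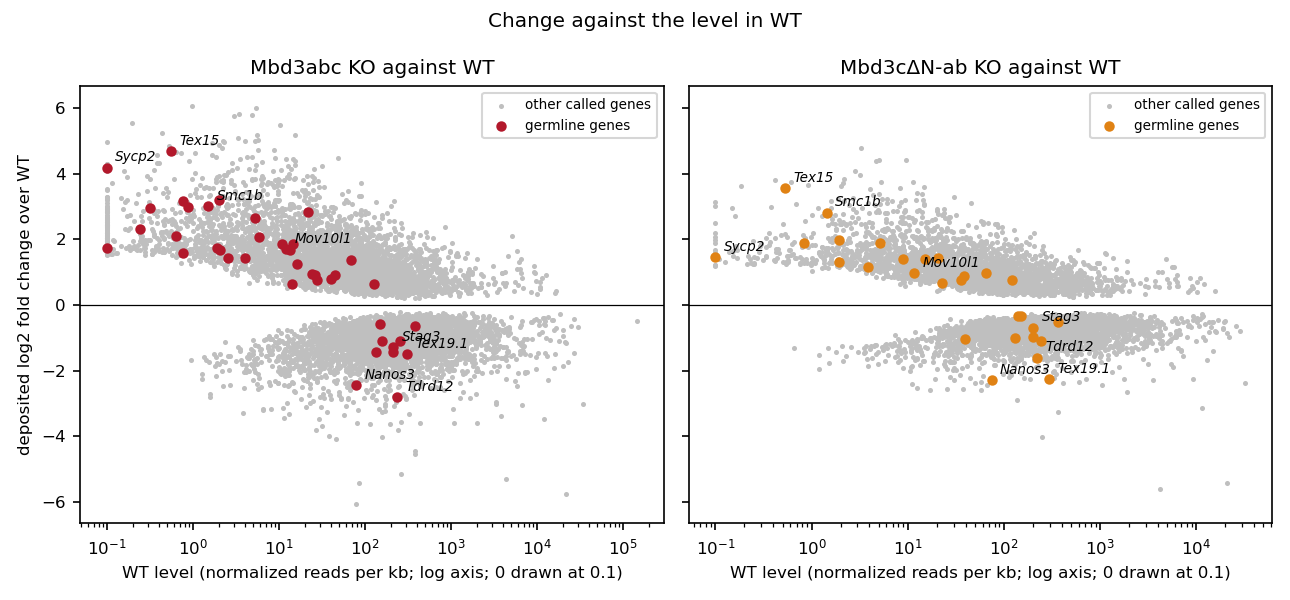
Deposited log2 fold change over WT (y axis) against the WT level in normalized reads per kb of transcript (x axis, log scale, 0 drawn at 0.1), for the germline genes (coloured) and the other called genes (grey) in Mbd3abc KO and Mbd3cΔN-ab KO. The risen germline genes had a median WT level of 5.25 and 8.92 per kb in the 2 tables, and those that fell lay mostly above 100.

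Level in WT went with direction. Genes that rose in Mbd3abc KO had a median WT level of 5.25 normalized reads per kb, against 45.3 for all genes that rose, and 54.8% of them lay under 10 per kb, against 26.0% of all. In Mbd3cΔN-ab KO the medians were 8.92 and 53.4. The germline genes that fell had medians of 213 in Mbd3abc KO and 202 in Mbd3cΔN-ab KO, close to 212 and 233 for all genes that fell, and 9 of 10 and 9 of 11 exceeded 100 per kb. Per kb, Spag5 (386), Tex19.1 (310), Tex261 (256), Tdrd12 (233) and Stag3 (213) were the most abundant of the 41 germline genes in WT cells of the Mbd3abc KO table, and all 5 fell. Of the risen genes Mageb16 was the most abundant in WT, at 127 per kb. The fold change and the WT level share the WT libraries, so a low WT value by itself raises the fold.

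**Figure D5:**
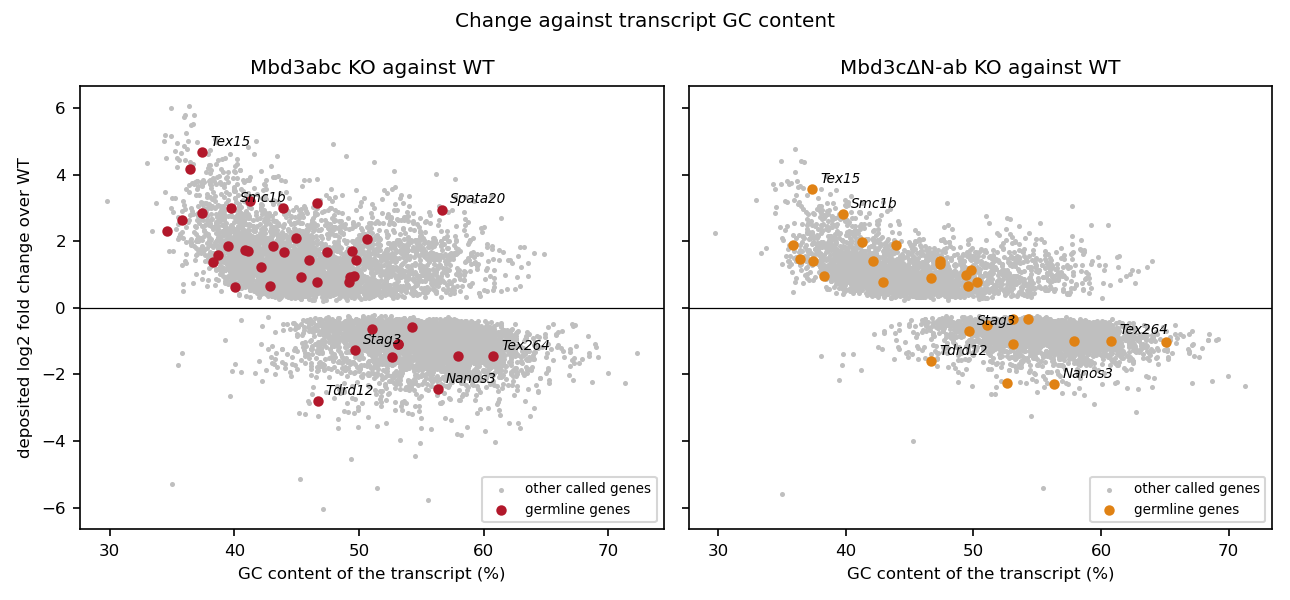
Deposited log2 fold change over WT (y axis) against GC content of the transcript in percent (x axis), for the germline genes (coloured) and the other called genes (grey) in Mbd3abc KO and Mbd3cΔN-ab KO. Genes of low GC content lie above 0 and genes of high GC content mostly below it, and the germline genes lie within the same cloud.

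Direction also went with the GC content of the transcript, over all genes and over these. With the called genes cut into 5 classes of equal size by GC content, the shares higher in Mbd3abc KO were, with rising GC content, 98.4%, 86.1%, 44.97%, 20.7% and 10.4% of all called genes. The germline genes were higher in 16 of 16, 8 of 9, 6 of 9, 0 of 4 and 1 of 3. In Mbd3cΔN-ab KO the shares were 99.2%, 92.9%, 42.3%, 14.1% and 6.28%, and 9 of 9, 4 of 5, 4 of 8, 0 of 3 and 0 of 3 of the germline genes were higher. Tex15 (37.4% GC), Sycp1 (34.6%), Hormad1 (35.8%), Sycp2 (36.4%) and Sycp3 (37.4%) all fall in the lowest class. Tdrd12, lower at 46.7% GC, and Spata20, higher at 56.6% GC in Mbd3abc KO, went against most genes of their class. The part of GC content in these changes was not tested. Ribosomal RNA was removed with reagents of 2 suppliers per the labels' protocols, and the labels do not tie either supplier to a library.

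Levels in the 2 mutants were compared directly for the 25 genes listed with the same transcript in both tables, with edgeR's quasi-likelihood test over 5413 genes, of which 5.43% were called, 3.18% higher and 2.25% lower in Mbd3abc KO. Both a and b isoforms are labelled as lost in each, and the lines differ in what is left of c. The 25 tested are not quite the 25 called in both mutants. They include Ddx4, not called in Mbd3cΔN-ab KO, and lack Hormad1, listed with a different transcript for each mutant. Of the 25 tested, Sycp2 was higher and Spata13 lower in Mbd3abc KO. On the common scale Sycp2 had 49.995 and 34.4 normalized reads in Mbd3abc KO, against 6.16 and 9.55 in Mbd3cΔN-ab KO, a log2 difference of 2.37 with an edgeR adjusted p of 0.0419. Spata13 had 529 and 549 in Mbd3abc KO, against 916 and 900 in Mbd3cΔN-ab KO, a log2 difference of -0.75 with an edgeR adjusted p of 0.0303. Neither passed with the 4 mutant libraries alone, at an edgeR adjusted p of 0.0967 for Sycp2 and 0.0993 for Spata13. Without 1 of the 6 libraries each passed in 1 of 6 fits, the one without the second Mbd3abc KO library.

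The libraries of the 2 mutants did not overlap for 16 of the 25 genes, 10 higher and 6 lower in Mbd3abc KO, as for 59.2% of all 5413 genes. Among those that did not pass, Tex19.1 had 166 and 198 normalized reads in Mbd3abc KO, against 115 and 89.4 in Mbd3cΔN-ab KO (edgeR adjusted p 0.0581), and Sycp3 had 333 and 149 in Mbd3abc KO, against 101 and 59.9 in Mbd3cΔN-ab KO (0.0731). Mov10l1 had 151 and 175 in Mbd3abc KO, against 113 and 88.5 in Mbd3cΔN-ab KO (0.104), and Tdrd12 had 23.6 and 59.6 in Mbd3abc KO, against 61.6 and 139 in Mbd3cΔN-ab KO (0.120). Tex15 had 171 in each Mbd3abc KO library, against 106 and 102 in Mbd3cΔN-ab KO (0.172). Smc1b differed least of the 25, with a log2 difference of -0.0027 (0.997). The median log2 difference was -0.0027 over the 25 genes and 0.02 over all 5413 genes. Only genes listed for both mutants entered, so most genes called in 1 mutant alone were left out. The medians therefore do not show how alike the 2 mutants are.

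Other genes of the same pathways were read from lists of named genes. Their counts stand beside 27.1% higher and 24.9% lower of all genes tested in Mbd3abc KO and 21.1% higher and 20.4% lower in Mbd3cΔN-ab KO, and their medians, over listed genes, beside 0.46 and 0.37 over all called genes. Of 16 further piRNA and Argonaute genes 4 rose and 6 fell in Mbd3abc KO and 4 rose and 5 fell in Mbd3cΔN-ab KO, with median log2 fold changes of -0.88 and -0.38. Rnf17, a Tudor protein of germ cells, rose 5.68-fold and 5.01-fold, while Mov10, the broadly expressed relative of Mov10l1, fell 6.56-fold and 2.52-fold. Pld6, the nuclease that cuts piRNA precursors, fell 2.63-fold in Mbd3abc KO, and Gpat2, a partner of Piwil2, fell 3.66-fold and 1.92-fold. Of 17 further meiosis genes 7 rose and 3 fell in Mbd3abc KO and 6 rose and 1 fell in Mbd3cΔN-ab KO. Brca2, which loads Dmc1 onto DNA, rose 9.25-fold in Mbd3abc KO and 5.67-fold in Mbd3cΔN-ab KO.

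Of 18 somatic relatives of these proteins and their cofactors, 11 rose and 2 fell in Mbd3abc KO and 9 rose and 1 fell in Mbd3cΔN-ab KO, with medians of 1.33 and 1.18 on the log2 scale. Stag2, a mitotic counterpart of Stag3, rose 8.31-fold and 5.11-fold, opposite to Stag3 itself, and Smc1a, the mitotic counterpart of Smc1b, rose 1.76-fold and 1.35-fold. Taf7 rose 2.82-fold and 2.45-fold beside Taf7l. Of 20 further germ cell genes 6 rose and 5 fell in Mbd3abc KO and 5 rose and 5 fell in Mbd3cΔN-ab KO, with Dazl 42.7-fold and 13.4-fold higher and Dppa3 63.1-fold and 27.0-fold lower. In Mbd3ab KO 2 of the 20 rose and 2 fell, beside 2.05% higher and 1.3% lower of all genes tested there. Sohlh2 was the one called in Mbd3c KO, 2.997-fold higher, where 0.353% of all genes tested were called.

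Of 24 genes known to keep germline promoters silent, 9 rose and 10 fell in Mbd3abc KO and 9 rose and 9 fell in Mbd3cΔN-ab KO. Mga rose 2.18-fold and 1.70-fold and E2f6 1.95-fold and 1.46-fold, L3mbtl2 fell 2.67-fold and 1.72-fold, the corepressor Trim28 fell 2.79-fold and 2.03-fold, and the DNA methyltransferase Dnmt3b fell 2.37-fold and 2.01-fold. None of the 24 was called in Mbd3ab KO, where 3.35% of all genes tested were called, or in Mbd3c KO, where 0.353% were. At such low shares nothing is read from this.

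Markers of other cells give the setting of these changes. Their counts stand beside 27.1% higher and 24.9% lower of all genes tested in Mbd3abc KO, and 21.1% and 20.4% in Mbd3cΔN-ab KO. In Mbd3ab KO these shares were 2.05% and 1.3%, and in Mbd3c KO 0.353% were called. Of 5 primordial germ cell markers, 0 rose and 3 fell in Mbd3abc KO, 0 rose and 4 fell in Mbd3cΔN-ab KO, and 0 rose and 3 fell in Mbd3ab KO. Nanos3 and Dppa3 fell in all 3 mutants, Kit in Mbd3abc KO and Mbd3cΔN-ab KO, and Tfap2c in Mbd3cΔN-ab KO and Mbd3ab KO. These markers are not a separate set. Nanos3 is one of the germline genes followed here, and the others belong to the further germ cell genes counted above. Ddx4 and Dazl, germ cell genes outside this list, rose in Mbd3abc KO, so nothing is read from its shared direction. None of 6 markers of the 2-cell-like state was listed for any mutant. Of 4 Sertoli and testis somatic markers 1 rose (Star, 2.95-fold in Mbd3abc KO), and of 8 fibroblast markers Thy1 rose and Col1a1 fell in both Mbd3abc KO and Mbd3cΔN-ab KO. Trophectoderm markers rose in 3 of 5 in Mbd3abc KO, 2 of 5 in Mbd3cΔN-ab KO, 3 of 5 in Mbd3ab KO and 1 of 5 in Mbd3c KO. Krt8 had 669 and 322 normalized reads in Mbd3abc KO, against 81.1 and 126 in WT. Their part in the changes of the germline genes was not tested. In these bulk samples a rise in all cells and a larger rise in few cells cannot be told apart.

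Without any single one of its 4 libraries, with DESeq2 fitted again to the listed genes, 15 of the 41 called genes in Mbd3abc KO stayed past the threshold every time, 10 higher (Hormad1, Mov10l1, Smc1b, Spag16, Sycp2, Sycp3, Tex11, Tex13, Tex15, Tex9) and 5 lower (Spata13, Stag3, Tdrd12, Tex19.1, Tex264). In Mbd3cΔN-ab KO 4 of 28 did so, Smc1b and Tex15 higher and Tdrd12 and Tex19.1 lower. In Mbd3ab KO none of the 4 did. Of these 4, edgeR without TMM factors and limma called none, while edgeR with TMM factors and DESeq2 called Tdrd12 alone. Over all 443 listed genes edgeR without TMM factors and limma called 0, edgeR with TMM factors 32 and DESeq2 239. For Tdrd12 the edgeR, DESeq2 or limma adjusted p ran from 5.57e-06 to 0.0811 over the refits of all libraries. Fits without 1 library, which leave a group with 1 library, also called fewer of all listed genes. Whether germline calls were lost more often than others was not tested, and nothing is read from the calls lost there. No called germline gene changed direction in any refit, from which nothing is read. Each had both mutant libraries on one side of both WT libraries, so a reversal could hardly occur.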

How the data were processed

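Total RNA was depleted of ribosomal RNA and made into strand-specific libraries, per the labels' protocols. Reads were processed with TopHat2, HOMER and DESeq2 on mm10, per the submitters' processing notes, and HOMER counted exon reads by strand with transcripts condensed to genes, per the file headers. No source names the versions or the aligner's settings. For each mutant the authors deposited 1 table, which lists the called genes and between 0 and 11 others. Their read columns are a normalized signal deposited per library. The deposited log2 fold change, its SE, the p-value and its adjusted value come from DESeq2, per the file headers, and the deposited score (the Wald statistic) was not used.

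Every low value in the Mbd3abc KO, Mbd3cΔN-ab KO and Mbd3ab KO tables was a whole multiple of 1 step per library (100% within 0.1 step), so whole reads were recovered, and the WT reads equalled each other between tables at all 5413 and 370 shared transcripts. Columns were tied to groups, since the mutant columns do not carry the replicate numbers of the labels. Size factors came from the deposited mean level, and tables were normalized separately, so levels compare within a table. The number of genes tested was recovered from p and adjusted p. Folds are ratios of means of 2 libraries. Against 0 WT reads they use a floor of 3 reads per library. Against 1 to 3 WT reads a ratio is given instead, with an exact interval. It takes the reads summed over the 2 libraries of a group, divided by their summed size factors. Floor and interval are for counting error only.

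The main calls are the authors' (adjusted p under 0.05). The 2 mutants were compared with edgeR 4.0.16 (quasi-likelihood, Benjamini-Hochberg) on recovered reads. Alternatives were refits with edgeR, with DESeq2 1.42.0 and with limma 3.58.1 (pseudocount 1 or 5), adjusted over the recovered number of genes tested, TMM factors, other thresholds and leaving out each library. Scripts were tested on simulated data. R 4.3.3 and Python 3.11.15 were used. Promoters and motifs are from RefSeq tables on GRCm38.p6.

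Values by library are given for Tex15, Smc1b, Mov10l1 and Tdrd12, for each gene called in Mbd3ab KO or Mbd3c KO, for each gene called in both larger sets that changed at least 2-fold in 1 of them, and for each gene called in 1 table only that changed at least 4-fold or averaged over 200 normalized reads. The genes, role groups and lists were chosen with earlier results of these data known.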

Additional observations from a re-analysis of the deposited data

Results flagged for a closer look

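Sycp2 and Spata13 were flagged because their change against WT differed between Mbd3abc KO and Mbd3cΔN-ab KO when the difference itself was tested with edgeR. They were 2 of 25 germline genes tested, beside 5.43% of all 5413 genes, so nothing is read from their number. For Sycp2 the change in Mbd3abc KO minus that in Mbd3cΔN-ab KO was 2.37 on the log2 scale (edgeR adjusted p 0.0419), with 49.995 and 34.4 normalized reads in Mbd3abc KO, 6.16 and 9.55 in Mbd3cΔN-ab KO and 0 in WT. For Spata13 it was -0.75 (edgeR adjusted p 0.0303), with 529 and 549 in Mbd3abc KO, 916 and 900 in Mbd3cΔN-ab KO and 1221 and 1083 in WT. Over 10 other settings the difference lay between 1.93 and 2.75 for Sycp2 and between -0.79 and -0.72 for Spata13, and each passed in 4 of the 10, with edgeR or DESeq2 adjusted p from 0.033 to 0.125 and from 5.91e-04 to 0.102.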

How the results depend on the processing

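No called germline gene reversed its direction in any refit, which its libraries, all on one side of WT, nearly fixed in advance. The refits also called fewer of all listed genes than the authors did. In Mbd3abc KO the count of 31 higher genes was between 24 and 30 with adjusted p under 0.01, at least 2-fold, a mean of at least 10 normalized reads, edgeR, TMM, DESeq2 or limma, and that of 10 lower genes between 8 and 10. Leaving out 1 library gave 12 to 14 higher and 6 to 10 lower, the 6 without the first WT library. In Mbd3cΔN-ab KO 17 higher became 9 with adjusted p under 0.01 and 9 with the DESeq2 refit, 11 lower became 7 with at least 2-fold, and leaving out 1 library gave 3 to 5 higher and 2 to 7 lower, the lowest without either WT library. In Mbd3ab KO the 1 higher gene was 0 with edgeR, TMM, DESeq2 and limma at both pseudocounts and in every leave-one-out refit (range 0 to 0), and the 3 lower genes were 1 with adjusted p under 0.01, 1 with TMM, 1 with the DESeq2 refit, 0 with edgeR, 0 with limma and 0 to 2 without 1 library; all 4 had an unadjusted p under 0.05 in the full refits. TMM over the 443 listed genes moved the median log2 there by -0.33, and by less than 0.1 elsewhere. Between the 2 mutants, 1 higher and 1 lower became 0 and 0 with adjusted p under 0.01, 3 higher with DESeq2 (Sycp3 and Tex19.1 added), 0 and 0 with the 4 mutant libraries alone, and 0 to 2 each without 1 library. Over all 5413 genes 172 higher and 122 lower became 175 and 186 with TMM. The cause was not tested. Refits see listed genes only, a lone library is assumed to vary like the others, and the Mbd3c KO table had no germline gene to refit. No paired analysis was possible because the mutant columns do not carry the replicate numbers of the labels. Depth limits folds of rare genes: over both WT libraries there were 8 reads of Tex15 and 0 of Sycp2 and Asz1.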
